A study of Mus musculus with 4 samples.

Results

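The transcripts described here encode the enzymes that carry pyruvate into the citric acid cycle and run the cycle, measured by RNA-seq in fetal brown adipose tissue (BAT). They were chosen as a list of 32 genes by function and found by symbol in the deposited count table, which lists 22298 genes. All 32 genes were found and all 32 had enough reads to be tested. Pregnant C57BL/6 mice drank either sterilized tap water (control) or water with 20% (w/v) fructose (fructose), and BAT was taken from their fetuses at E18.5. Each group has 2 libraries, 4 in all, and the labels name no other treatment or allele. The number of fetuses or litters behind a library was not given in the sources used here, so the p-values measure the spread between these libraries, which may be technical.

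Pyruvate, the end product of glycolysis, enters mitochondria through the MPC1 and MPC2 carrier and is converted to acetyl-CoA by the pyruvate dehydrogenase complex. Kinases of the PDK family phosphorylate this complex and switch it off, and the phosphatases PDP1 and PDP2 switch it on again. Pyruvate carboxylase makes oxaloacetate from pyruvate, and the citric acid cycle oxidises the acetyl group and passes the electrons to the respiratory chain. BAT is rich in mitochondria and burns fuel for heat through this route, which also supplies citrate for fat synthesis.

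Total counts per library ranged from 18542897 to 23645147, and the 12888 genes kept by edgeR's filter on low counts were tested. Levels are given as CPM, that is counts divided by the library's total and edgeR's TMM factor on a common scale, and fold changes are fructose over control from edgeR's quasi-likelihood model. A gene is called when its two-sided p-value, adjusted by Benjamini-Hochberg over all tested genes, is under 0.05. All 4 libraries are labelled male. The counts of 4 Y-linked genes (Ddx3y, Eif2s3y, Kdm5d, Uty) summed to 422 and 390 counts in control libraries 1 and 2 and to 0 counts in both fructose libraries, which allows up to 0.134 and 0.127 CPM (3 counts, counting error only). The fructose libraries therefore go against their label for sex, and since both do, sex and treatment cannot be told apart in any comparison below; Pdha1, Pdk3 and Idh3g are on the X chromosome. Genes encoded by mitochondrial DNA held 5.893% and 6.489% of the control counts and 10.75% and 11.22% of the fructose counts. All 12 skeletal muscle marker genes were higher in fructose (summed level 277 and 382 CPM against 891 and 676 CPM), 5 of 6 erythroid markers were lower (19211 and 15298 CPM against 11769 and 12144 CPM), and 3 of 8 brown adipocyte markers were higher and 1 was lower (13773 and 16483 CPM against 15039 and 13537 CPM). Of 6 general adipocyte markers 2 were lower and 0 higher (10859 and 9986 CPM against 9438 and 9108 CPM), without overlap of the sums. Brown adipocyte markers were thus abundant in every library, and the 4 cardiomyocyte and 5 liver markers had 6 counts or fewer in sum in every library. The part of these shifts in the results was not tested, and in tissue RNA fewer cells of a type and less RNA per cell cannot be told apart.

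Pdk4 was 1.45-fold higher in fructose and Pdk2, the most abundant kinase transcript, was 1.26-fold lower. Idh3b, Idh3g, Idh2, Fh1 and Mdh2, all encoding mitochondrial dehydrogenases of the cycle or its fumarase, were 1.21-fold to 1.31-fold lower. Pdk1 and the E3 subunit gene Dld were 1.23-fold and 1.28-fold higher. In all, 3 of 32 genes (9.38%) were called higher and 6 (18.8%) lower, and 23 were not called. Over all tested genes, 15.5% were called higher and 10.7% lower, so the share called higher was below this background and the share called lower above it, a difference that was not tested. Both fructose values were above, or both below, the 2 control values for 19 of the 32 genes (59.4%), against 65.1% of all tested genes. The median log2 fold change of the 32 genes was -0.073 (range -0.39 to 0.61), and that of all tested genes was 0.0025. Without the trends described next, these medians were -0.067 and -0.0031.

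The calls depended on a trend across the transcriptome. Over 12884 tested genes the log2 fold change rose with transcript length (Spearman's rho 0.497) and fell with GC content (rho -0.527), a description across genes that share the same libraries. When both trends were removed from each library by lowess, 3.65% of all tested genes were called higher and 3.81% lower. In that fit edgeR called 0 of the 32 genes, with 5 at an unadjusted p under 0.05, whereas DESeq2 on the untreated counts called 3 higher and 7 lower. The value with both trends removed is therefore given beside each called gene of the list. The trends were fitted with the group differences included, so removing them also takes out any group difference that varies with length or GC content. Whether the trends are technical or biological was not tested. Scaled by library size only, 4 genes were higher and 4 lower, with Pdp2 added and Fh1 and Mdh2 lost.

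**Figure D1:**
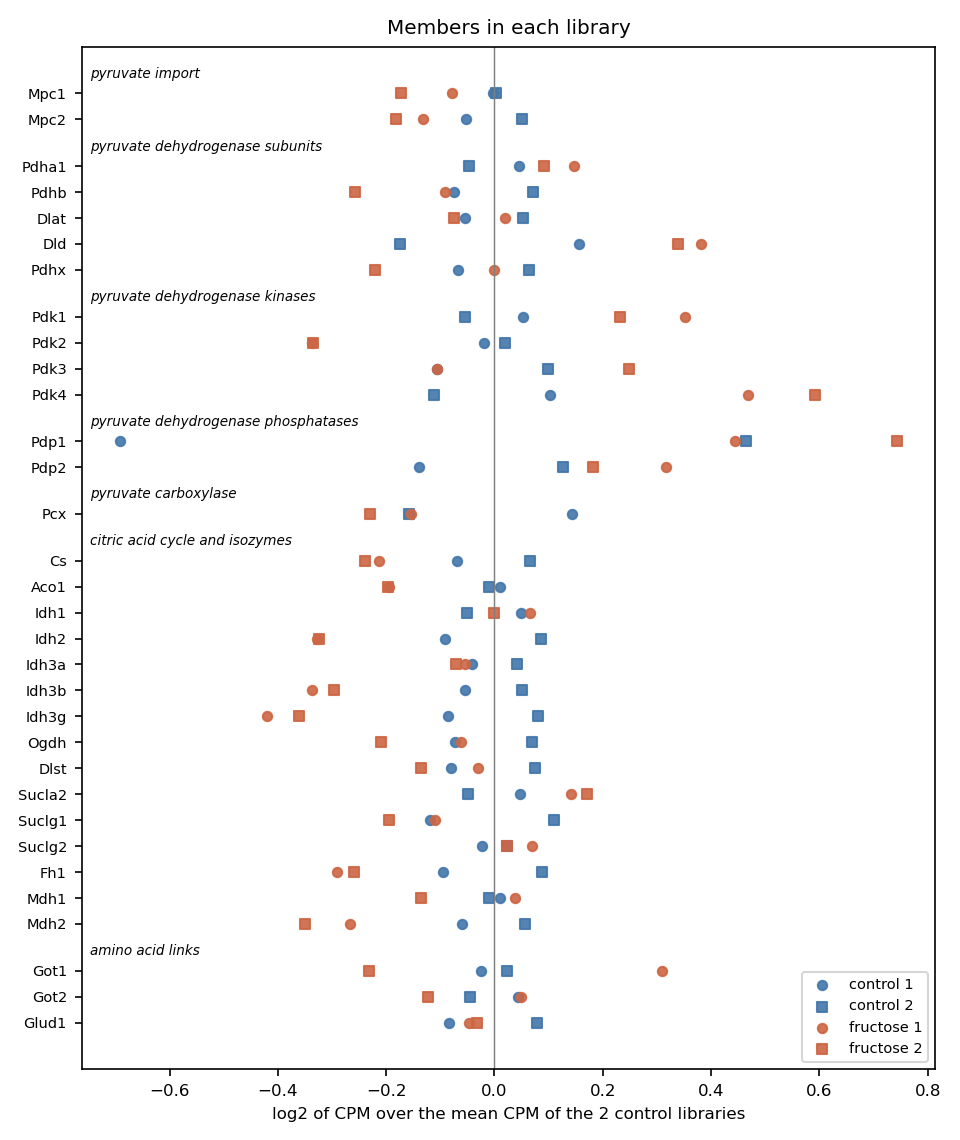
The level of each of the 32 genes in each library is plotted as log2 of its CPM over the mean CPM of the 2 control libraries, with circles for replicate 1, squares for replicate 2, blue for control and orange for fructose. Pdk4, Pdk1 and Dld lie to the right of both control libraries in both fructose libraries, and Pdk2, Idh2, Idh3b, Idh3g, Fh1 and Mdh2 lie to the left. The sparse Pdp1 has the widest spread between control libraries.

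Neither subunit of the mitochondrial pyruvate carrier was called. Mpc1 was at 505 and 507 CPM in control and 479 and 449 CPM in fructose, a log2 fold change of -0.13 (95% interval -0.31 to 0.054). Mpc2 was at 376 and 404 CPM against 356 and 344 CPM, a log2 fold change of -0.16 (-0.34 to 0.026). Both fructose libraries were below both control libraries for each gene, yet the intervals include 0. The ratio of Mpc1 to Mpc2 counts, which are not corrected for length and serve only to compare libraries, was 1.34, 1.26, 1.34 and 1.31 in control 1, control 2, fructose 1 and fructose 2.

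Of the 5 pyruvate dehydrogenase subunits only Dld was called. Dld encodes dihydrolipoamide dehydrogenase, the E3 enzyme that this complex shares with the oxoglutarate and branched-chain ketoacid dehydrogenases. Dld was at 356 and 283 CPM in control and 416 and 404 CPM in fructose, so the groups did not overlap although the control libraries differed more than the fructose libraries did. Its log2 fold change was 0.36 ± 0.10 (SE, adjusted p = 0.026, edgeR), and without both trends it was -0.036 (adjusted p = 0.85). The catalytic E1 subunits and the E2 core were not called. Pdha1, the E1 alpha subunit, was at 758 and 711 CPM against 813 and 783 CPM (log2 fold change 0.12). Part of its exons, 603 bases, overlap Map3k15 on the opposite strand, and whether the counts used strand was not given in the sources used here. Pdhb, the E1 beta subunit, was at 1359 and 1504 CPM against 1344 and 1197 CPM (-0.17). Dlat, the acetyltransferase E2, was at 657 and 708 CPM against 692 and 648 CPM (-0.027), with overlapping groups, as was Pdhx, the E3-binding protein, at 189 and 207 CPM against 198 and 170 CPM (-0.11). Within a library, the ratio of Dld to Dlat counts was 0.542 and 0.40 in control and 0.601 and 0.624 in fructose. The difference of their log2 fold changes, for which no test was run in this or any other pair below, was 0.39, and it was 0.53 without the length trend, -0.037 without the GC trend and 0.17 without both.

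The kinases moved in opposite directions. Pdk4 (chr6:5483351-5496309, minus strand, GRCm38) encodes the kinase that rises in fasting and with fatty acid supply in many tissues. It was at 275 and 237 CPM in control and 354 and 386 CPM in fructose, and both fructose libraries were above both control libraries. The log2 fold change was 0.53 ± 0.094 (SE, 95% interval 0.33 to 0.74, adjusted p = 0.0025, edgeR) and was called with each library left out in turn (0.43 to 0.64). It was 0.47 (adjusted p = 0.0055) without the length trend, 0.28 (0.049) without the GC trend and 0.31 (0.12 to 0.50, adjusted p = 0.053) without both. Pdk2 (chr11:95026258-95041354, minus strand), a widely expressed kinase, was at 644 and 662 CPM in control and 517 and 518 CPM in fructose. The gap between groups was far wider than the gap within them. Pdk2 fell by 0.34 ± 0.081 on the log2 scale (SE, 95% interval -0.51 to -0.16, adjusted p = 0.011), with a value of -0.11 (adjusted p = 0.44) without both trends. Pdk1 (chr2:71873224-71903858, plus strand), a target of hypoxia-inducible factor in many cells, was at 152 and 141 CPM in control and 187 and 172 CPM in fructose. Its log2 fold change of 0.29 ± 0.085 (SE, adjusted p = 0.024) became -0.028 (0.89) without both trends. Pdk3 was sparse, with 72 and 79 counts against 86 and 119, and its groups overlapped (log2 fold change 0.086, adjusted p = 0.82). How reads matching more than one of these paralogs were counted was not given in the sources used here.

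Idh3g had the lowest fold change of the 32 genes. Its promoter and those of the 3 called kinases are shown because these transcripts moved in opposite directions. Each runs from 250 bases before to 50 bases after the annotated start (RefSeq, GRCm38.p6), 5′ to 3′ on the gene's strand. Capitals mark an E-box (CACGTG) or the core motif of nuclear receptors (AGGTCA, which reads TGACCT on the other strand).
Pdk4 promoter, chr6:5496229-5496528, minus strand: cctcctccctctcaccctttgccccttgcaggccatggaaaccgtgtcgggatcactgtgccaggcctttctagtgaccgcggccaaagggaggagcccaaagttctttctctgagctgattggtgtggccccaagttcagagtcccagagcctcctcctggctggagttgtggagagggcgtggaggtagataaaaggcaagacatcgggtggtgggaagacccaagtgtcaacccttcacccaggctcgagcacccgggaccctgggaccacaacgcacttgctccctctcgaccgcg
Pdk2 promoter, chr11:95041322-95041621, minus strand: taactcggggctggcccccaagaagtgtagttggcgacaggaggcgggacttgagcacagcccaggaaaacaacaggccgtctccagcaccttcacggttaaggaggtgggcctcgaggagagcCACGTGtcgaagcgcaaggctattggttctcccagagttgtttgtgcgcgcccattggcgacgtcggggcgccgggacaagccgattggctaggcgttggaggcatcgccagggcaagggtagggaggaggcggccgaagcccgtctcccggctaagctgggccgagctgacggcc
Pdk1 promoter, chr2:71872974-71873273, plus strand: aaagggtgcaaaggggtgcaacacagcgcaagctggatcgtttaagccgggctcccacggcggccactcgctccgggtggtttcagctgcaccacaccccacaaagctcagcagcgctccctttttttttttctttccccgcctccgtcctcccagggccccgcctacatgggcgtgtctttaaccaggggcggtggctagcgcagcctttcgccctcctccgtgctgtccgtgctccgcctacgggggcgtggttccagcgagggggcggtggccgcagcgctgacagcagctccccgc
Idh3g promoter, chrX:73786848-73787147, minus strand: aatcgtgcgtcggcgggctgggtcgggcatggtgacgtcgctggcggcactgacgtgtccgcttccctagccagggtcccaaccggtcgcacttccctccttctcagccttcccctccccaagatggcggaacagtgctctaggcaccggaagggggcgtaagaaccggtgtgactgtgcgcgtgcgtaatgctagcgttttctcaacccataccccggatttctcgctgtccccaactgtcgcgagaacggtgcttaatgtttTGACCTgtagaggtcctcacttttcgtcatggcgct
The windows of Pdk4, Pdk2, Pdk1 and Idh3g were 60.7%, 64.7%, 66% and 60.3% G and C. They held 12, 25, 25 and 27 CpG pairs, so the Pdk4 window had the fewest. Of the motifs searched on both strands, the E-box was found in the Pdk2 window 126 bases before the start, and the nuclear receptor core in the Idh3g window 14 bases after it. Among 30 of the 32 genes with a promoter in the table, the E-box was in 3 (10%: Pcx, Pdk2 and Pdp2), against 7.15% of 32851 promoters. AGGTCA was in 5 (16.7%: Fh1, Got1, Got2, Idh3g and Sucla2), against 16.3%, and also lies within the estrogen-related receptor motif TCAAGGTCA, which was in 0 (0.423% of all). The forkhead motif GTAAACA was in 0 (3.65% of all), and so was the motif of nuclear respiratory factor 1 (1.27%). These are matches of letters in short windows, not binding sites. The 30 promoters had a median GC content of 62% and 22 CpG pairs, against 52.7% and 7 for all promoters.

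Together these shifts changed the composition of the kinase transcripts. On a per-length scale (CPM per kb of merged exons), Pdk2 made up 67.2% and 70.6% of the sum of the 4 kinases in control and 56.4% and 55.0% in fructose. Pdk4 made up 25.8% and 22.8% in control and 34.8% and 36.9% in fructose. Pdk1 went from 6.43% and 6.11% to 8.29% and 7.43%, and Pdk3 was 0.490% and 0.577% against 0.513% and 0.637%. The sum of the 4 was 303 and 297 CPM per kb in control and 290 and 298 in fructose, so the total overlapped between groups on this scale, as did the Pdk3 share, while the shares of the other 3 kinases did not. With the length of the principal transcript in place of merged exons, the Pdk4 share was 19.9% and 17.3% against 27.5% and 29.4%, and the sum was 397 and 392 CPM per kb against 369 and 377, without overlap. The ratio of Pdk4 to Pdk2 counts was 0.426 and 0.358 in control and 0.684 and 0.744 in fructose. The difference of their log2 fold changes was 0.87, and it was 0.74 without the length trend, 0.45 without the GC trend and 0.42 without both. For Pdk1 against Pdk2 the difference of 0.63 fell to 0.086 without both trends. These shares and ratios are given without a test.

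**Figure D2:**
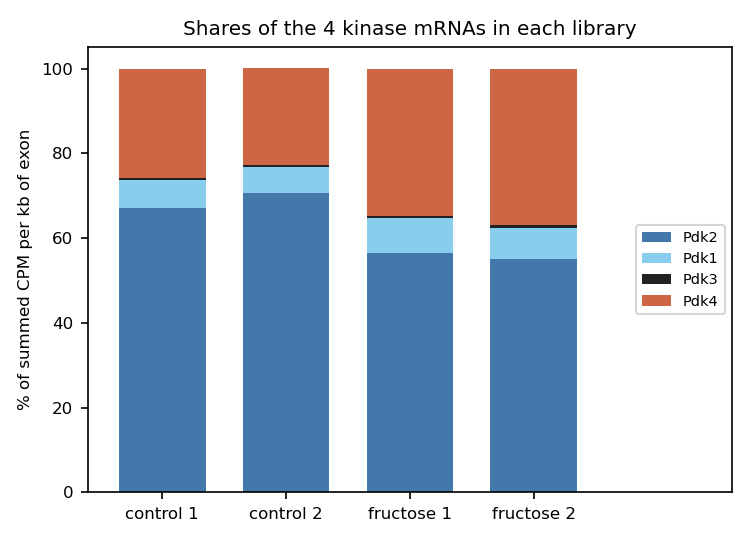
The stacked bars give each pyruvate dehydrogenase kinase as a percentage of the summed CPM per kb of merged exons of Pdk1 to Pdk4, with 1 bar per library. The Pdk4 share rises from 25.8% and 22.8% in control to 34.8% and 36.9% in fructose, and the Pdk2 share falls from 67.2% and 70.6% to 56.4% and 55.0%.

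The phosphatases that oppose these kinases were not called. Pdp1, a calcium-activated form, was sparse, with 24 and 51 counts in control and 63 and 84 in fructose. Its log2 fold change of 0.61 was the highest of the list, but its 95% interval ran from -0.15 to 1.37 and its groups overlapped in CPM. Pdp2 was at 39.3 and 47.3 CPM against 53.9 and 49.1 CPM (log2 fold change 0.25, 0.02 to 0.48, adjusted p = 0.10, edgeR). With library size as the only scaling Pdp2 was called (0.31, adjusted p = 0.046), and without both trends it was -0.065. Pcx, which refills the cycle with oxaloacetate, was at 2336 and 1896 CPM in control and 1902 and 1805 CPM in fructose. The second control library lay below the first fructose library, and the log2 fold change of -0.19 (-0.43 to 0.043) was not called.

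Among the 15 listed genes of the cycle and its cytosolic isozymes, which leave out succinate dehydrogenase, 5 were called lower (33.3%, against 10.7% of all tested genes), 0 were called higher and 12 had fold changes below 0. edgeR's unadjusted p was under 0.05 for 7 of the 15, and DESeq2 added Cs to the genes called lower. The shares of all tested genes with fold changes below 0 or at that unadjusted p are not given here. Without both trends edgeR called 0 of the 15, against 3.65% of all tested genes called higher and 3.81% lower. The median log2 fold change of the 15 was -0.15, and -0.13 without both trends, against 0.0025 and -0.0031 for all tested genes. Entry into the cycle is catalysed by citrate synthase. Cs was at 5640 and 6188 CPM in control and 5101 and 5008 CPM in fructose, with no overlap (log2 fold change -0.23, -0.44 to -0.017, adjusted p = 0.10 by edgeR and 0.04 by DESeq2). Aco1, the cytosolic aconitase that also acts as an iron-regulated RNA-binding protein, was at 839 and 827 CPM against 728 and 727 CPM. The libraries of each group were close to each other, and the log2 fold change of -0.19 (-0.37 to -0.015) had an adjusted p of 0.10.

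The NAD-dependent isocitrate dehydrogenase is built from the subunits IDH3A, IDH3B and IDH3G, of which IDH3A is catalytic and the others are regulatory or structural. Idh3g (chrX:73778963-73786897, minus strand) was at 1405 and 1578 CPM in control and 1115 and 1161 CPM in fructose. Its log2 fold change of -0.39 ± 0.092 (SE, adjusted p = 0.010, edgeR) was the lowest of the list, and it was -0.13 (0.47) without both trends. Idh3b (chr2:130279309-130284547, minus strand) was at 1444 and 1553 CPM against 1186 and 1221 CPM. The log2 fold change of -0.32 ± 0.088 (SE, adjusted p = 0.021) became -0.086 (0.62) without both trends. Its exons overlap Nop56 on the opposite strand by 5 bases. For both subunits every fructose library lay below every control library. Idh3a was at 1463 and 1550 CPM against 1450 and 1434 CPM, a log2 fold change of -0.063 (-0.25 to 0.13) that was not called. The ratio of Idh3a to Idh3g counts was 1.04 and 0.983 in control and 1.3 and 1.23 in fructose, while that of Idh3b to Idh3g was 1.03 and 0.984 against 1.06 and 1.05. These ratios restate the fold changes of the subunits and are no further evidence. The difference of the log2 fold changes was 0.33 for Idh3a and Idh3g and 0.25 for Idh3a and Idh3b. Without both trends these differences were -0.054 and -0.093.

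Of the NADP-dependent isoforms only the mitochondrial one was called. Idh2 (chr7:80094846-80115392, minus strand), which makes NADPH there, was at 827 and 934 CPM in control and 702 and 703 CPM in fructose. The log2 fold change was -0.33 ± 0.090 (SE, adjusted p = 0.020, edgeR), against -0.061 without both trends. Idh1, the cytosolic and peroxisomal form, was at 267 and 249 CPM against 270 and 258 CPM, with overlapping groups (0.032, -0.15 to 0.21). The ratio of Idh2 to Idh1 counts was 3.09 and 3.76 in control and 2.60 and 2.73 in fructose. The difference of their log2 fold changes went from -0.36 to 0.069 without both trends. Of the malate dehydrogenases, too, only the mitochondrial one was called. Mdh2 (chr5:135778480-135790398, plus strand), which closes the cycle, was at 3366 and 3649 CPM in control and 2915 and 2752 CPM in fructose. Mdh2 fell by 0.31 ± 0.094 on the log2 scale (SE, adjusted p = 0.031, edgeR), with a value of -0.0055 (adjusted p = 0.98) without both trends. Mdh1, the cytosolic enzyme, was at 1478 and 1458 CPM against 1507 and 1336 CPM, with overlapping groups (-0.047, -0.25 to 0.15). The ratio of Mdh2 to Mdh1 counts was 2.28 and 2.50 in control and 1.93 and 2.06 in fructose. The difference of their log2 fold changes went from -0.26 to 0.077 without the GC trend and 0.080 without both.

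Fh1 (chr1:175600374-175625635, minus strand) encodes fumarase, which acts both in the cycle and in the cytosol. It was at 705 and 800 CPM in control and 615 and 629 CPM in fructose, and the groups did not overlap. Fh1 fell by 0.28 ± 0.090 on the log2 scale (SE, adjusted p = 0.041, edgeR). Without both trends its log2 fold change was -0.31 (95% interval -0.50 to -0.11, adjusted p = 0.062), whereas those of the other lower genes came nearer to 0. It was called with 1 of the 4 libraries left out, namely without control replicate 1.

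The remaining cycle genes of the list were not called. Ogdh, the E1 enzyme of the oxoglutarate dehydrogenase complex, was at 2933 and 3234 CPM against 2956 and 2668 CPM (-0.13), and Dlst, its E2 enzyme, was at 2423 and 2697 CPM against 2508 and 2329 CPM (-0.082). The groups overlapped for both. The succinyl-CoA ligases differed in sign by subunit. Sucla2, the ADP-forming beta subunit, was at 720 and 674 CPM against 769 and 785 CPM (0.16, -0.027 to 0.34). Suclg2, the GDP-forming beta subunit, was at 150 and 155 CPM against 160 and 155 CPM (0.051). Suclg1, the alpha subunit shared by both, was at 1385 and 1625 CPM against 1394 and 1315 CPM (-0.15). None of these intervals left out 0.

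**Figure D3:**
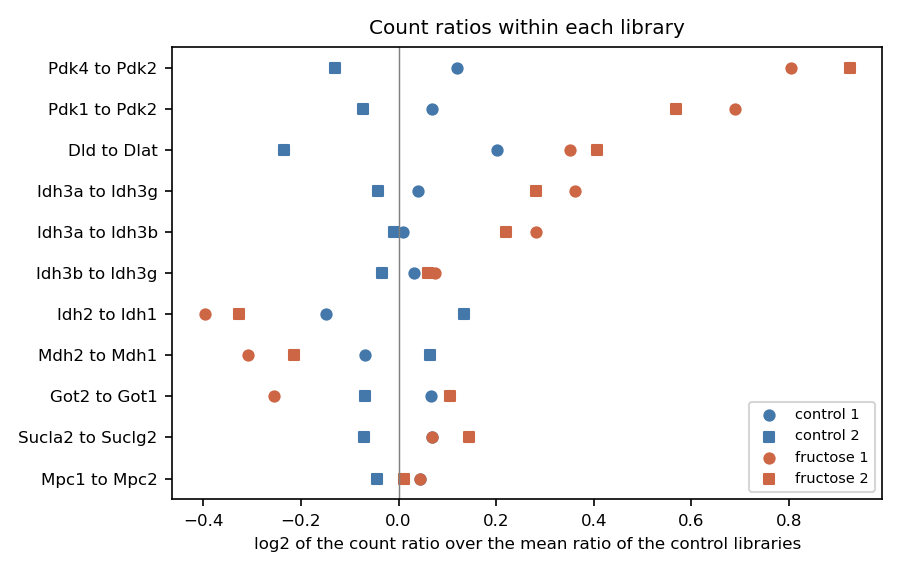
The ratio of counts of paired genes within each library is plotted as log2 over the mean ratio of the control libraries (circles, replicate 1; squares, replicate 2; blue, control; orange, fructose). Pdk4 to Pdk2, Pdk1 to Pdk2 and Idh3a to Idh3g are higher in both fructose libraries than in both control libraries, Mdh2 to Mdh1 and Idh2 to Idh1 are lower, and Got2 to Got1 and Mpc1 to Mpc2 overlap.

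The genes that link the cycle to amino acids were not called, and their groups overlapped. Glud1, glutamate dehydrogenase, was at 193 and 216 CPM against 198 and 200 CPM (log2 fold change -0.040, -0.22 to 0.15). Got2, the mitochondrial aspartate aminotransferase, was at 81.2 and 76.3 CPM against 81.5 and 72.3 CPM (-0.035, -0.23 to 0.16). Got1, its cytosolic partner in the malate-aspartate shuttle, was at 11.9 and 12.3 CPM against 15.0 and 10.3 CPM (0.058, -0.33 to 0.44).

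Levels were compared between genes per kb of length, on merged exons and on the principal transcript. By both measures Cs and Mdh2 had the highest mean levels in control, at 1023 and 985 CPM per kb of merged exons and 2021 and 2409 CPM per kb of principal transcript. Pdp1 had the lowest, at 0.454 and 0.488 CPM per kb. The order of other genes, such as Mpc2, with 7344 bases of merged exons and 1025 bases of principal transcript, turned on which length was used.

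Leaving out a library changed the calls, with the lone library of a group assumed to vary like the others. Without fructose replicate 1 only Pdk4 was called (1 higher, 0 lower), and without fructose replicate 2 Dld, Pdk1 and Pdk4 were higher and 1 gene, Idh3g, was lower. Pdk2, Idh2, Idh3b and Mdh2 lost their call without either fructose library (edgeR adjusted p 0.070 and 0.080 for Pdk2, 0.085 and 0.10 for Idh2, 0.13 and 0.099 for Idh3b, 0.084 and 0.24 for Mdh2). Without fructose replicate 1 the adjusted p was 0.18 for Pdk1, 0.061 for Idh3g, 0.053 for Dld and 0.18 for Fh1. Dld also lost its call without control replicate 2 (0.097), as did Fh1 (0.14), which lost it without fructose replicate 2 as well (0.15). None of the 9 called genes changed sign in these fits. Without control replicate 1, Pdhb (0.033), Cs (0.0089) and Suclg1 (0.020) joined the genes called lower, and without control replicate 2, Pdp1 (0.0077) and Pdp2 (0.0050) joined those called higher and Pcx (0.0027) those called lower.

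Other genes of the same routes were read from the same fit under 30 identifiers, of which Nnt has 2. Of the 30 identifiers, 4 were called higher (13.3%) and 5 lower (16.7%), against 15.5% and 10.7% of all tested genes. The difference from these shares was not tested. DESeq2 called 1 of the 30 identifiers higher, Pdpr, and 5 lower. Me1, the cytosolic malic enzyme that makes NADPH, was at 181 and 131 CPM in control and 302 and 226 CPM in fructose (log2 fold change 0.76, adjusted p = 0.0044, edgeR), and it stayed called without both trends (0.65, adjusted p = 0.025). Acly, which splits exported citrate, was at 859 and 882 CPM against 1572 and 1049 CPM (0.59, and 0.52 with an adjusted p of 0.061 without both trends). The fructose libraries of Acly differed more from each other than the control libraries did, and its call was lost without fructose replicate 1 (adjusted p = 0.15). Pdpr, the regulatory subunit of pyruvate dehydrogenase phosphatase, was at 18.4 and 20.7 CPM against 28.7 and 30.7 CPM (0.60, adjusted p = 0.0032). It was called with each library left out, and was 0.36 without both trends (adjusted p = 0.063). The Nnt identifier called higher (ENSMUSG00000025453) had 51 and 32 counts in control and 100 and 102 in fructose. Its log2 fold change was 0.94 (0.88 with an edgeR adjusted p of 0.066 without both trends). That of the other identifier (ENSMUSG00000116207) was -0.65. Summed over both identifiers, Nnt had 218 and 81 counts against 221 and 153, which overlap. The identifiers share exons, so the split of reads between them is uncertain.

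The genes called lower included subunits of succinate dehydrogenase, the cycle enzyme that is also respiratory complex II. Sdhb was at 2083 and 2237 CPM against 1620 and 1610 CPM (-0.42, adjusted p = 0.0061, edgeR), and Sdhc at 1200 and 1201 CPM against 958 and 914 CPM (-0.36, adjusted p = 0.010). Without both trends Sdhb was -0.084 and Sdhc was -0.41 (adjusted p = 0.014). Sdha (-0.23) and Sdhd (-0.16) were not called, although DESeq2 called Sdha (adjusted p = 0.042). Pck2, the mitochondrial phosphoenolpyruvate carboxykinase, was at 131 and 132 CPM against 106 and 82.8 CPM (-0.48, adjusted p = 0.0073), and was called without both trends (-0.60, adjusted p = 0.0080). Slc25a11, the oxoglutarate carrier, was -0.29 and Lipt2, a lipoyl(octanoyl) transferase, was -0.43, and neither was called without both trends (-0.038 and -0.22). DESeq2 did not call Lipt2 (adjusted p = 0.097). Me3, the mitochondrial NADP-dependent malic enzyme, was called by edgeR without both trends (-0.53, adjusted p = 0.028). It was not called on the untreated counts (-0.30, adjusted p = 0.095, edgeR). Left out in turn, 1 or more libraries ended the calls of Nnt, Sdhc, Pck2, Slc25a11 and Lipt2, and Sdhc (0.11) and Pck2 (0.084) lost theirs without fructose replicate 2.

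The 32 genes followed the trend of the transcriptome with length and GC content. The 3 genes called higher had principal transcripts of 2544 to 5185 bases with 40.6% to 46.4% GC. The 6 called lower had 1331 to 2636 bases with 47.7% to 56.9% GC. The 23 that were not called spanned 958 to 5692 bases and 39.2% to 57.8% GC. Across the 32 genes the log2 fold change had a Spearman's rho of 0.466 with length and of -0.696 with GC content, given as a description of genes that share the same 4 libraries. Without the GC trend alone, 1 gene (Pdk4) was higher and 5 were lower, and of these only Idh3g and Fh1 were called lower on the untreated counts. The others were Mpc1 (-0.37), Idh3a (-0.31) and Idh1 (-0.29). Without the length trend alone, 2 genes were lower. When gene length was taken from merged exons in place of the principal transcript, an alternative chosen after seeing the data, Pdk4 was called without both trends (0.42, adjusted p = 0.010, edgeR).

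**Figure D4:**
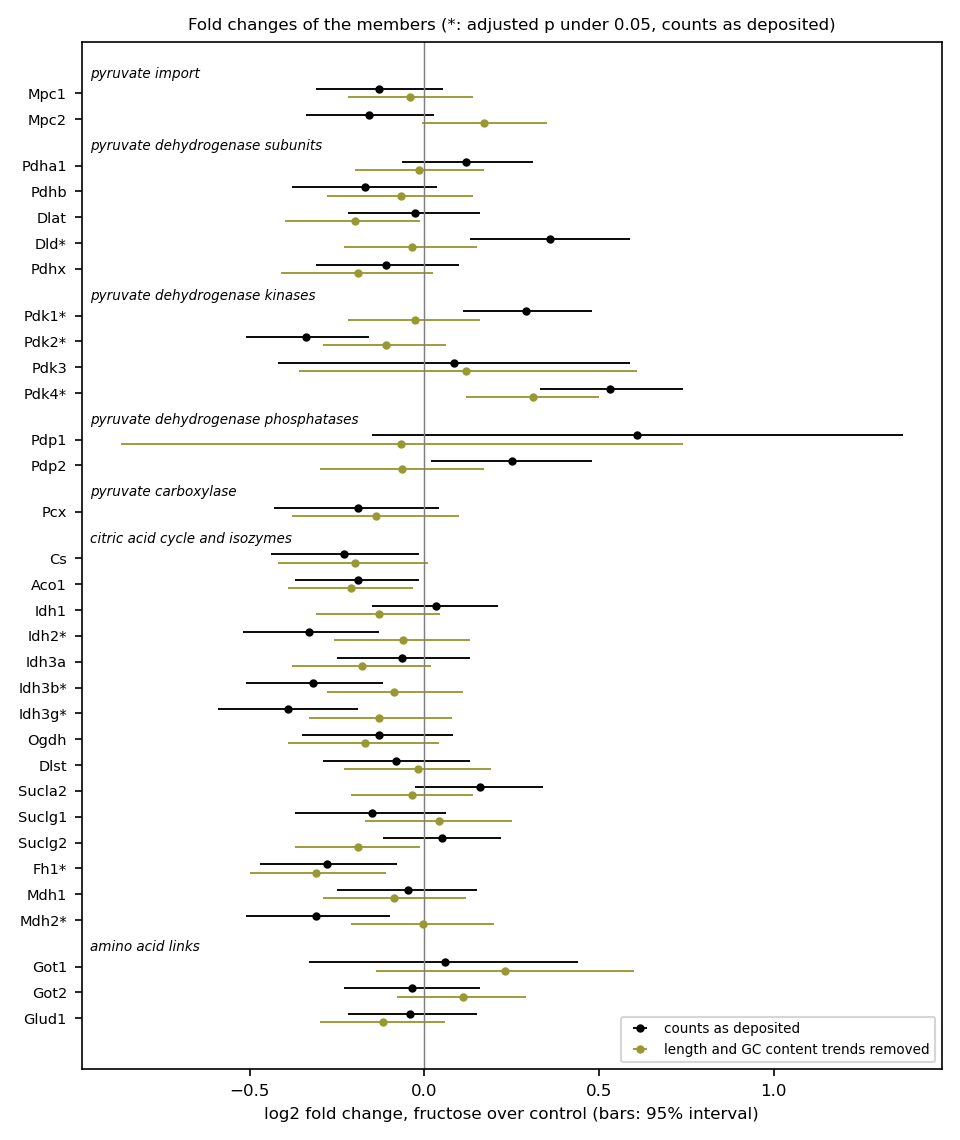
The log2 fold change of each gene, fructose over control, is plotted with its 95% interval from the counts as deposited (black) and after removal of the trends with length and GC content (olive), and asterisks mark an adjusted p under 0.05 in the first. Of the 9 called genes, Pdk4 and Fh1 keep intervals away from 0 in both, while Dld, Pdk1, Pdk2, Idh3b, Idh3g, Idh2 and Mdh2 move to intervals that include 0.

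**Figure D5:**
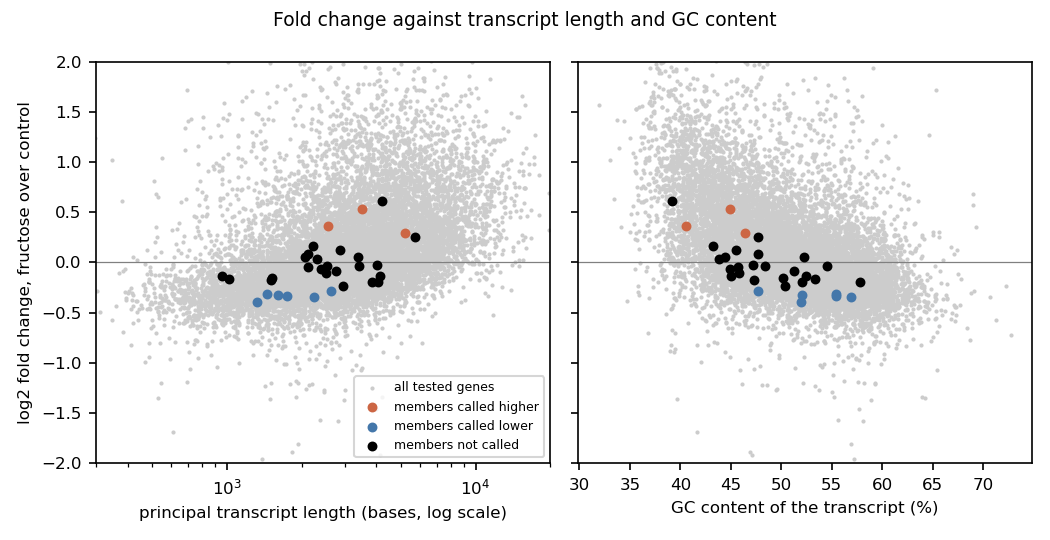
The log2 fold change of all tested genes (grey) and of the 32 genes (orange, called higher; blue, called lower; black, not called) is plotted against principal transcript length in bases on a log axis (left) and GC content in percent (right). The genes called higher have 40.6% to 46.4% GC and those called lower 47.7% to 56.9%, and 77 tested genes lie beyond the fold change axis and 13 beyond the length axis.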

How the data were processed

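RNA-seq counts per gene were analysed for 2 control and 2 fructose libraries of fetal BAT. According to the methods and the submitters' processing notes, the authors filtered reads with fastp, mapped them to mm10 with Bowtie2 2.0.0.5 and TopHat2 2.0.0, assembled transcripts with StringTie 2.2.0, and deposited raw counts without normalization. The counting tool and its use of strand are not given in the sources used here. The table of all libraries and the 4 single-library tables were identical in their counts.

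Symbols, positions, lengths and GC content came from the GENCODE annotation of GRCm38 (22255 of 22298 identifiers matched). Counts were tested with edgeR 4.0.16 in R 4.3.3 (filterByExpr, TMM, quasi-likelihood test, no covariate, Benjamini-Hochberg over 12888 genes). All 32 genes are named, with full values for the called genes and their paralogs. Some other genes of the routes are not reported here. The members and lists were chosen with earlier results of these data known. Tests were also run on simulated data, without a trend and with a trend on a random covariate in place of length and GC content. The outcome is not reported here.

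The alternatives were DESeq2 1.42.0, other scalings and filters, removal of the length and GC trends (lowess, span 0.3, as offsets), the replicate block, the study's thresholds (unadjusted p under 0.05 and fold change above 1.3), and each library left out. The study's thresholds were applied here to the edgeR fit, whereas the study applied them to DESeq2. The replicate numbers did not pair the libraries.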

Additional observations from a re-analysis of the deposited data

How the results depend on the processing

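The 32 genes gave 3 higher and 6 lower calls. The counts stayed within 1.5 times of these under DESeq2 (3 and 7), DESeq2 size factors, library size only (4 and 4), and both other filters on low counts. They were the same with mitochondrially encoded genes left out of the library sizes. That fit kept these genes in the TMM scaling, which offsets a change of library size, so it could not show an effect of leaving them out. Without the length trend 2 were lower, without the GC trend 1 was higher, without both 0 were called in either direction (also with the replicate block), and with merged exon lengths 1 was higher and 0 lower. The study's thresholds, applied to the edgeR fit, gave 1 higher and 1 lower. Leaving out a library gave 1 to 4 higher and 0 to 9 lower. The median of -0.073 was -0.012 with library size only, -0.011 without the length trend, -0.17 without the GC trend, and -0.15 to -0.036 with a library left out. For the other genes of the routes (4 and 5), DESeq2 gave 1 higher, library size only 3 lower, no length trend 3 and 3, neither trend 1 and 3 (5 and 3 with the block), merged exon lengths 3 and 3, the study's thresholds 3 lower, and a library left out 2 to 6 higher and 1 to 9 lower. Over all genes (2001 and 1379), library size only gave 2242 higher and 857 lower, no length trend 1175 higher, no GC trend 980 higher, neither trend 470 and 491 (646 and 596 with the block), merged exon lengths 588 and 695, the study's thresholds 797 lower, and a library left out 1266 to 2254 higher and 527 to 1685 lower. The deviations of same-numbered libraries from their group means had a correlation of -0.0266 over genes, and the replicate block on the untreated counts gave 3 and 6 calls among the 32 genes and 2117 and 1441 over all genes. The cause of these changes was not tested.

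The following fold changes turned their sign, including those of the called genes Dld and Pdk1 and of Pdp1. Without the length trend these were Mpc1 (0.12), Mpc2 (0.080), Pdp2 (-0.016), Suclg1 (0.015), Suclg2 (-0.00048) and Mdh1 (0.038). Without the GC trend they were Pdha1 (-0.10), Dld (-0.20), Pdk3 (-0.037), Pdp1 (-0.092), Idh1 (-0.29), Sucla2 (-0.21), Suclg2 (-0.23) and Got2 (0.074). Without both trends they were Mpc2 (0.17), Pdha1 (-0.015), Dld (-0.036), Pdk1 (-0.028), Pdp1 (-0.067), Pdp2 (-0.065), Idh1 (-0.13), Sucla2 (-0.037), Suclg1 (0.042), Suclg2 (-0.19) and Got2 (0.11). With the replicate block as well, the same 11 genes turned, at 0.17, -0.015, -0.035, -0.030, -0.020, -0.063, -0.13, -0.038, 0.045, -0.19 and 0.11. With merged exon lengths they were Dld (-0.046), Idh1 (-0.080), Sucla2 (-0.094), Suclg2 (-0.16) and Got2 (0.038). With library size only they were Dlat (0.034), Mdh1 (0.013), Got2 (0.025) and Glud1 (0.022). With a library left out, the ranges crossed 0 for Dlat (-0.079 to 0.028), Pdhx (-0.22 to 0.0028), Pdk3 (-0.10 to 0.25), Idh1 (-0.019 to 0.086), Mdh1 (-0.13 to 0.040), Got1 (-0.23 to 0.30), Got2 (-0.12 to 0.052) and Glud1 (-0.12 to 0.042). Pdk3 and Pdp1, with 24 to 119 counts per library, allow only wide intervals.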
